A study of Mus musculus with 6 samples.

Results

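Protein phosphatases remove phosphate groups from proteins, and the transcripts of 88 genes of this class were compared in the tibialis anterior, a shin muscle made mostly of fast fibres, between aged and young mice. The members were chosen by gene name. They are the genes of the serine/threonine phosphatase complexes PP1, PP2A, calcineurin, PP4 and PP6 and their regulatory subunits (Ppp1 to Ppp6), of the dual-specificity phosphatases (Dusp), of the non-receptor tyrosine phosphatases (Ptpn) and of the receptor tyrosine phosphatases (Ptpr). They made up 88 of the 11239 genes in the deposited tables. The aged group held 3 samples of C57BL/6 mice at 18 months, and the young group held 3 samples of C57BL/6 mice at 3 months. No sample carries a transgene or a treatment in the labels. No source used here gives the sex of the animals or the strandedness of the libraries. Nothing in the labels says that each sample came from its own animal, so p-values measure the spread between these samples. In a bulk sample, fewer cells of a type and less RNA per cell cannot be told apart.

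A serine/threonine phosphatase usually consists of a catalytic subunit shared by many complexes and of a regulatory subunit that chooses the target, the place or the activity of the complex. PP1 in muscle is held on glycogen or on myosin by such subunits, and calcineurin is a phosphatase switched on by calcium and calmodulin that activates NFAT transcription factors and is known for its part in the programme of slow fibres. The dual-specificity phosphatases include the MAP kinase phosphatases, which switch off ERK, JNK and p38 kinases. The tyrosine phosphatases act on tyrosine alone, with receptor forms that span the membrane and non-receptor forms inside the cell.

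The libraries held between 71984420 and 102135094 fragments, and the 88 genes took between 0.513% and 0.550% of the fragments of a library. The authors deposited FPKM, which are fragments divided by transcript length and scaled to the total of the library. Ckm, the muscle creatine kinase, averaged 5507 FPKM in aged and 5593 FPKM in young muscle. The first principal component of the genes tested held 78.0% of the variance and separated the libraries by age. Of the 88 genes, 72 averaged 1 FPKM or more across all 6 libraries and were tested, and 16 lay below that minimum. Changes are given as the log2 change, the difference of mean log2(FPKM + 1), aged minus young, with its standard error. They come from limma with the Benjamini-Hochberg adjustment over all 7690 genes tested, and calls were made where the adjusted p was below 0.05. Folds are ratios of mean FPKM.

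Aged muscle differed from young muscle in 37 of the 72 phosphatase genes tested, 18 higher and 19 lower. That is 51.4% of them, next to 51.8% of all genes tested (27.3% higher and 24.5% lower), so the class as a whole changed about as often as any gene of the tables. The median log2 change was -0.02 in the members, next to 0.02 in all genes tested. Called changes of at least 1.5-fold numbered 13, or 18.1% of the members tested, next to 18.2% of all. The 3 aged values lay wholly above the 3 young values in 26 members and wholly below them in 21. Among all genes tested the 2 groups did not overlap in 62.8%, with 33.8% above and 29% below. With each library rescaled to the same sum without the 20 highest genes, 24 members were called higher and 16 lower, so the share of calls that were higher moved to 60%, next to 48.6% with the deposited scaling. The same rescaling moved this share to 62.6% over all genes tested, next to 52.7% with the deposited scaling.

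The calls are given by family as a description. Counts by family, role or list below, at the minimum of 1 FPKM, are to be read beside 27.3% higher and 24.5% lower among all genes tested. Of the 37 serine/threonine phosphatase genes tested, 11 were higher and 6 lower in aged muscle, with a median log2 change of 0.09. Of the 35 genes of the dual-specificity, non-receptor and receptor families tested, 7 were higher and 13 lower, with a median of -0.15. The difference between these 2 groups of genes was not tested. With a minimum mean of 5 FPKM the dual-specificity, non-receptor and receptor families had 7 higher and 7 lower calls among 22 tested. The serine/threonine genes then had 11 higher and 5 lower among 33. Among all 5204 genes tested at that minimum, 1573 were higher and 1266 lower. At the minimum of 1 FPKM, receptor phosphatases had 1 higher and 4 lower calls among 10 tested. Dual-specificity phosphatases had 4 higher and 6 lower among 16. At 5 FPKM these counts were 1 higher and 1 lower among 4 receptor genes, and 4 higher and 4 lower among 11 dual-specificity genes.

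**Figure D1:**
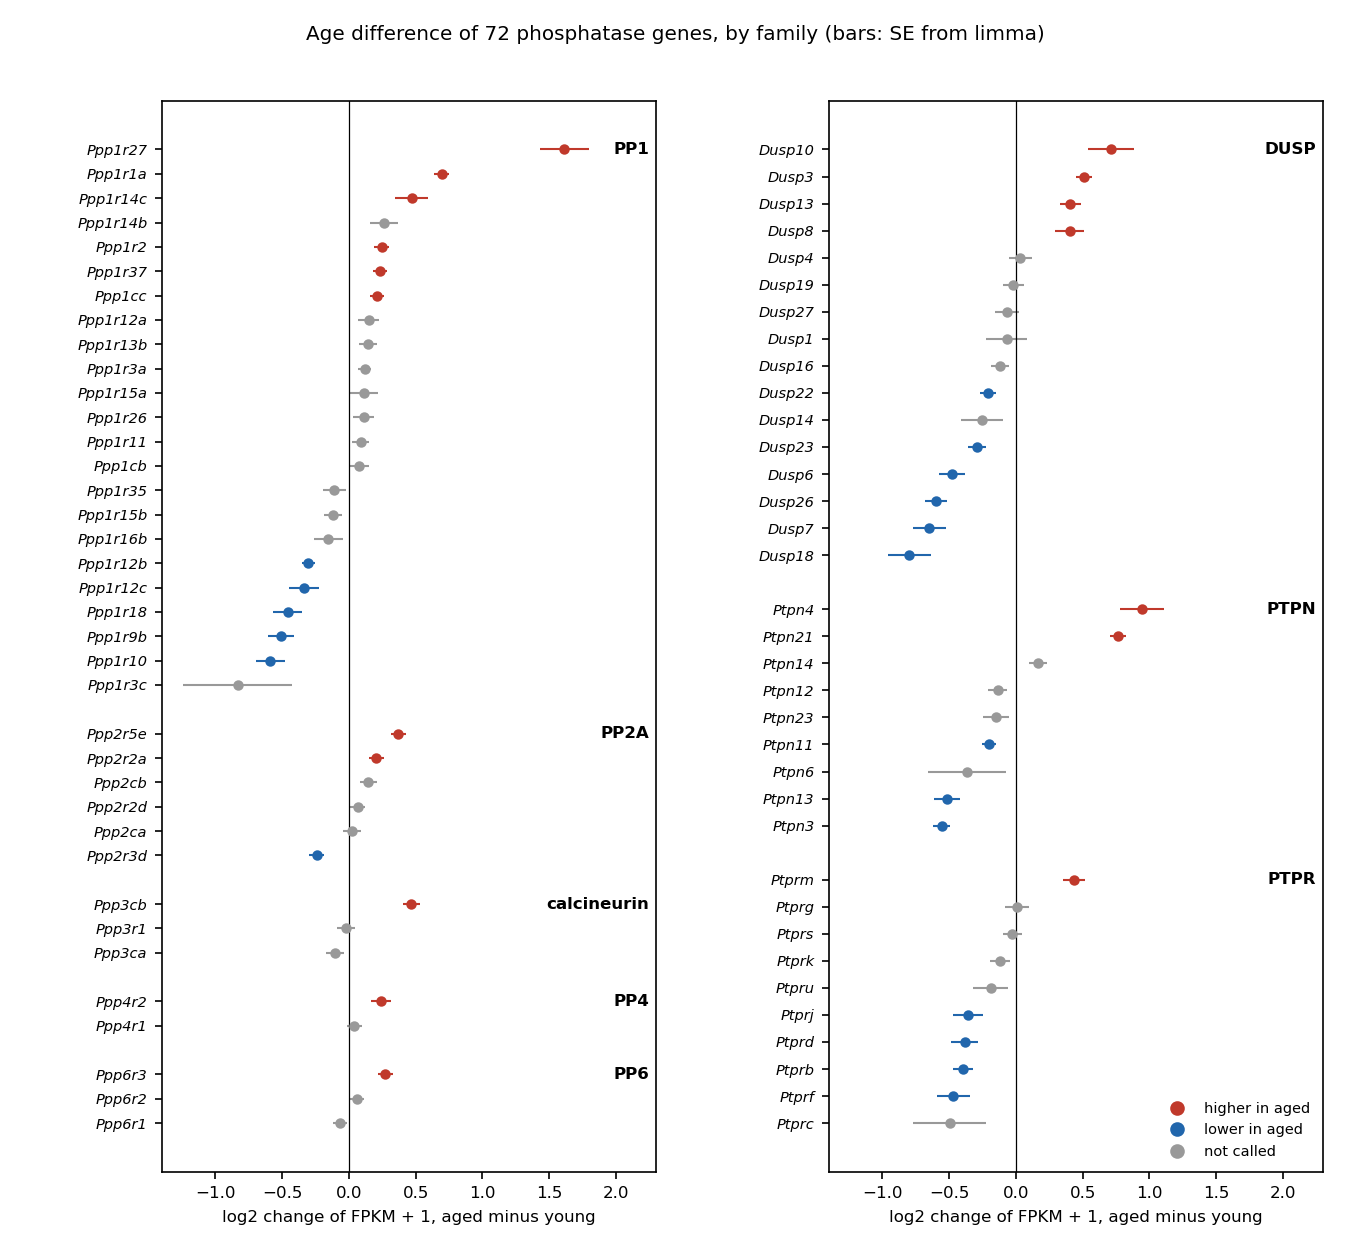
Log2 change of FPKM + 1 (aged minus young, horizontal axis) for the 72 phosphatase genes tested, grouped by family, with bars for the standard error from limma. Red points are called higher in aged muscle, blue points lower and grey points not called. The range runs from -0.83 for Ppp1r3c, which was not called and has the widest bar, to 1.61 for Ppp1r27.

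**Figure D2:**
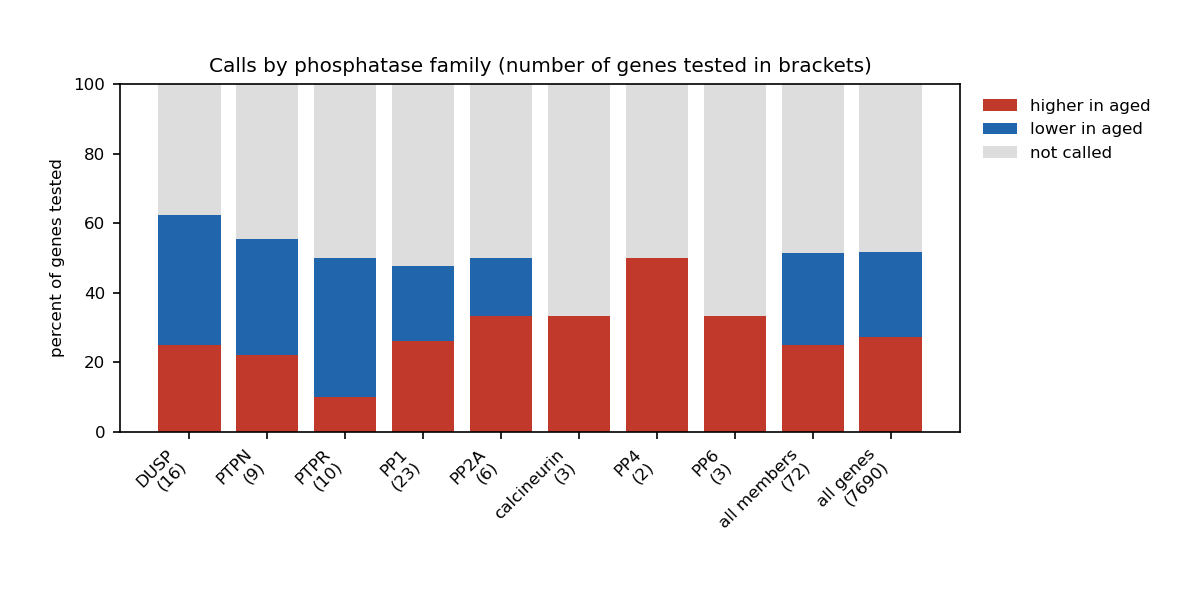
Percent of the genes tested in each family that were called higher (red), called lower (blue) or not called (grey) in aged against young muscle, with the number of genes tested under each bar. The bar of all 72 members, with 51.4% called, stands beside that of all 7690 genes, with 51.8%, and the receptor family shows the smallest red part among families with calls in both directions, at 10%.

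The 2 largest called rises, Ppp1r27 and Ptpn4, and the 2 largest called falls on the log2(FPKM + 1) scale, Dusp18 and Dusp7, are shown with the 250 bases before their RefSeq transcription start (GRCm38.p6, 5' to 3' on the strand of the gene), because these 4 genes stood at the ends of the called changes on that scale. By fold, the called falls of Ptpn13, Ptprf and Ptprj were larger than that of Dusp7. The windows are chr11:120551133-120551382 on the minus strand, chr1:119837072-119837321 on the minus strand, chr11:3894990-3895239 on the plus strand and chr9:106368382-106368631 on the plus strand, in that order. The window of Ptpn4 lies inside the deposited span of its gene, chr1:119652467-119837613. Capitals mark matches to CANNTG, the E-box read by myogenic and other basic helix-loop-helix factors, which reads the same on both strands.
Ppp1r27: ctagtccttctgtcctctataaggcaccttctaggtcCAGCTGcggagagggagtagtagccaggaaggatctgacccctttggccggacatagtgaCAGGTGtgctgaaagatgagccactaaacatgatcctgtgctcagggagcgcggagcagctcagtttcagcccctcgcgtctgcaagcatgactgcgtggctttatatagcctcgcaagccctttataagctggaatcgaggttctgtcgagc
Ptpn4: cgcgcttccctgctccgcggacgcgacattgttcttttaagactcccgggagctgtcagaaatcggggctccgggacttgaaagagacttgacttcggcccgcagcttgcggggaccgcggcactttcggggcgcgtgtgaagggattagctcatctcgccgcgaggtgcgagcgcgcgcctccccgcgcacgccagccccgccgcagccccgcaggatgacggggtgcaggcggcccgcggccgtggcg
Dusp18: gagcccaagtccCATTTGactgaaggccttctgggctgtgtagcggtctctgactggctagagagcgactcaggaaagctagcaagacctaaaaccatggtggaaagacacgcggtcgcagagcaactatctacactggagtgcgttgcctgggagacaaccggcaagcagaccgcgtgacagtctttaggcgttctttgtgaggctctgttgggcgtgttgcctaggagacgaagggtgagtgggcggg
Dusp7: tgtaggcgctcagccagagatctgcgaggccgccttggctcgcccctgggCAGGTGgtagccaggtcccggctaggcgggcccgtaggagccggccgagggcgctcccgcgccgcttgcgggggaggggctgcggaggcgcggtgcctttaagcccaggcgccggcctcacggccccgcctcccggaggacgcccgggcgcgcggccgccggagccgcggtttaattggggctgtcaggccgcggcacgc
The window of Ppp1r27 held 2 E-boxes and 2 matches to TATAAA counted on both strands, with 54.4% G and C. That of Ptpn4 held no E-box, with 70% G and C and 36 CpG. Those of Dusp18 and Dusp7 held 1 E-box each, with 56.8% and 77.2% G and C. Among 32851 windows of the same length in the RefSeq table, 66.2% held CANNTG and 12.4% held TATAAA. A match describes the letters and is not a binding site.

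Ppp1r27, a small ankyrin-repeat protein that binds PP1 and dysferlin, the membrane repair protein of muscle, showed the largest change of the class. It had 51.3, 78.2 and 77.6 FPKM in aged muscle, against 20.1, 18.7 and 26.4 FPKM in young muscle. Every aged library lay above every young one, and aged replicate 1 was the lowest of the aged 3. The gene was 3.18-fold higher (log2 change 1.61 ± 0.18, adjusted p = 0.000487), and the log2 change stayed between 1.51 and 1.81 when any single library was left out. It lies at chr11:120549979-120551132 on the minus strand of GRCm38.

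The inhibitors of PP1 had 3 higher calls and no lower call among 5 tested, next to 27.3% higher and 24.5% lower among all genes tested. Ppp1r1a, inhibitor-1, blocks PP1 once it is phosphorylated by protein kinase A, and had 45.5, 43.1 and 42.8 FPKM in aged muscle, against 26.5, 26.4 and 27.1 FPKM in young muscle. These are among the tightest groups of the class, and the gene was 1.64-fold higher (log2 change 0.69 ± 0.05, adjusted p = 0.000117). Ppp1r14c, the inhibitor KEPI that protein kinase C activates, had 17.6, 15.8 and 22.8 FPKM in aged against 12.2, 13.3 and 13.7 FPKM in young muscle (log2 change 0.47 ± 0.12, adjusted p = 0.0148). Its exons share 29.2% of their bases with a long non-coding RNA on the opposite strand, so reads of the 2 cannot be told apart without strand. Ppp1r2, inhibitor-2, had 60.3, 57.8 and 64.1 FPKM in aged against 51.3, 51.2 and 50.7 FPKM in young muscle (log2 change 0.24 ± 0.06, adjusted p = 0.00985). Ppp1r14b, a close relative of Ppp1r14c, averaged 68.9 ± 10.4 FPKM in aged and 56.95 ± 3.22 FPKM in young muscle (SD, n = 3 each) and missed the threshold (adjusted p = 0.0675). It was called with the replicate number as a block (adjusted p = 0.0235) and without aged replicate 2 (adjusted p = 0.0219). Ppp1r11, inhibitor-3, had overlapping groups (23.3 ± 1.09 FPKM in aged and 21.9 ± 0.705 FPKM in young muscle, adjusted p = 0.259).

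Ppp1cb, a catalytic subunit of PP1, had the highest mean FPKM of all members. It had 179.8, 179.7 and 205 FPKM in aged muscle and 185, 171 and 177 FPKM in young muscle, and the groups overlapped (log2 change 0.08 ± 0.07, adjusted p = 0.368). Ppp1cc had 82.4, 80.5 and 81.3 FPKM in aged muscle, against 71.4, 71.4 and 68.2 FPKM in young muscle, with no overlap (log2 change 0.21 ± 0.05, adjusted p = 0.0115). It was no longer called without young replicate 3 (adjusted p = 0.0512). Ppp1cc made up 30.3% ± 1.64 of the summed FPKM of the pair in aged muscle and 28.4% ± 0.949 in young muscle (SD, n = 3 each), and the ranges of this share overlapped. Ppp1ca was not analysed here.

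Glycogen-targeting subunits gave no call. Ppp1r3a, the subunit that holds PP1 on glycogen in skeletal muscle, had 67.2, 67.1 and 69.4 FPKM in aged muscle, against 63.4, 61.5 and 62.5 FPKM in young muscle. The groups did not overlap, but the change was small (log2 change 0.12 ± 0.05, adjusted p = 0.0814), and it passed without a minimum (adjusted p = 0.0485) and with the rescaled libraries (adjusted p = 0.0153). Ppp1r3c, known as PTG, had 46.4, 164 and 134 FPKM in aged muscle and 208, 157 and 179 FPKM in young muscle. Aged replicate 1 stood far below the other 5 libraries, and aged replicate 2 lay inside the young range. The log2 change of -0.83 ± 0.41 did not pass (adjusted p = 0.122). It was -0.28 without aged replicate 1 (adjusted p = 0.118) and -1.18 without aged replicate 2 (adjusted p = 0.0461). The size of the change thus rested largely on aged replicate 1, and the gene was called only without aged replicate 2. Ppp1r3d and Ppp1r3g lay below the minimum.

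Of the 10 glycogen enzymes and regulators tested beside them, 3 were higher and 2 lower in aged muscle. Gbe1, the branching enzyme, averaged 36.98 ± 3.74 FPKM in aged and 63.3 ± 4.303 FPKM in young muscle (log2 change -0.76 ± 0.09, adjusted p = 0.000477), and Gys1, the glycogen synthase of muscle that PP1 activates, averaged 317 ± 25.7 FPKM in aged and 447 ± 25.95 FPKM in young muscle (log2 change -0.50 ± 0.08, adjusted p = 0.00172), SD, n = 3 each. Gyg, the glycogenin that primes glycogen, had a log2 change of 0.29 ± 0.07 and Epm2a, the glycogen phosphatase laforin, one of 0.29 ± 0.06, and both were called. The muscle phosphorylase Pygm averaged 5067 ± 54.6 FPKM in aged and 5172 ± 309.9 FPKM in young muscle and was not called (adjusted p = 0.728).

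Myosin-targeting subunits had 2 lower calls among 3 tested, next to 24.5% lower among all genes tested. Ppp1r12b, the form of this subunit found in heart and skeletal muscle, had 135, 132 and 141 FPKM in aged muscle, against 167, 167 and 169.6 FPKM in young muscle. All aged values lay below all young values, with narrow groups, and the gene was 1.24-fold lower (log2 change -0.30 ± 0.05, adjusted p = 0.00257). Ppp1r12c averaged 30.4 ± 4.61 FPKM in aged and 38.3 ± 2.700 FPKM in young muscle (SD, n = 3 each; log2 change -0.34 ± 0.11, adjusted p = 0.0364). It was no longer called with the rescaled libraries (adjusted p = 0.0769), without a minimum (adjusted p = 0.0585), without aged replicate 3 (adjusted p = 0.0594) and without young replicate 1, 2 or 3 (adjusted p = 0.0761, 0.119 and 0.0515). Ppp1r12a, the form of smooth muscle and other cells, had overlapping groups (9.19 ± 0.708 FPKM in aged and 8.204 ± 0.476 FPKM in young muscle, adjusted p = 0.143) and passed with the rescaled libraries only (adjusted p = 0.0457). Ppp1r12b made up 77.5% ± 2.31 of the summed FPKM of the 3 genes in aged muscle and 78.3% ± 1.22 in young muscle.

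The other PP1 regulators moved both ways, with 2 higher and 3 lower calls among 9 tested. Ppp1r10, the nuclear subunit PNUTS, had 7.87, 10.5 and 10.2 FPKM in aged muscle, against 13.7, 15.7 and 14.8 FPKM in young muscle, 1.55-fold lower with no overlap (log2 change -0.59 ± 0.11, adjusted p = 0.00374). Ppp1r9b, the actin-binding subunit spinophilin, had 18.9, 17.9 and 14.8 FPKM in aged against 25.8, 25.8 and 22.7 FPKM in young muscle (log2 change -0.51 ± 0.10, adjusted p = 0.00457). Ppp1r18, the actin-binding subunit phostensin, was 1.51-fold lower (2.69 ± 0.461 FPKM in aged and 4.05 ± 0.375 FPKM in young muscle, adjusted p = 0.0101). Ppp1r37, a PP1-binding protein with leucine-rich repeats, was higher (46.8 ± 1.46 FPKM in aged and 39.7 ± 0.497 FPKM in young muscle, log2 change 0.23 ± 0.05, adjusted p = 0.00887). Of the 4 not called, Ppp1r13b, Ppp1r16b, Ppp1r26 and Ppp1r35, the log2 changes ran from -0.15 to 0.14.

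Ppp1r15a (GADD34) and Ppp1r15b (CReP), which bring PP1 to the translation factor eIF2 alpha, were not called. Ppp1r15a averaged 14.1 ± 2.34 FPKM in aged and 12.9 ± 0.534 FPKM in young muscle (adjusted p = 0.409) and Ppp1r15b averaged 4.68 ± 0.145 FPKM in aged and 5.18 ± 0.242 FPKM in young muscle (adjusted p = 0.159), SD, n = 3 each. Of the 7 eIF2 alpha kinases and target genes tested, none was higher and 1 was lower by limma. That gene was Chac1, a glutathione-degrading enzyme induced by ATF4 (43.3 ± 4.64 FPKM in aged and 71.3 ± 11.02 FPKM in young muscle, log2 change -0.70 ± 0.12, adjusted p = 0.002702).

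PP2A had 2 higher and 1 lower calls among 6 tested. Neither catalytic subunit was called. Ppp2ca had 30.9, 28.7 and 28.7 FPKM in aged muscle and 30.1, 26.8 and 30.01 FPKM in young muscle, with overlapping groups (log2 change 0.02 ± 0.07, adjusted p = 0.794). Ppp2cb had 22.2, 21.3 and 20.8 FPKM in aged muscle and 20.4, 19.3 and 18.3 FPKM in young muscle, with all aged values above (log2 change 0.14 ± 0.06, adjusted p = 0.0885), and passed with the rescaled libraries (adjusted p = 0.0228). A long non-coding RNA on the opposite strand covers 39.9% of the exon bases of Ppp2ca, and reads common to the 2 near-identical catalytic genes could have been split between them.

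Among the regulatory subunits of PP2A, Ppp2r5e, the B56 epsilon subunit, had 10.4, 10.3 and 10.7 FPKM in aged muscle, against 7.72, 7.99 and 7.89 FPKM in young muscle, 1.33-fold higher with no overlap (log2 change 0.37 ± 0.06, adjusted p = 0.00191). Ppp2r2a, the B55 alpha subunit, was higher by a smaller margin (12.03 ± 0.341 FPKM in aged and 10.3 ± 0.133 FPKM in young muscle, adjusted p = 0.0191). It was no longer called without young replicate 1, 2 or 3 (adjusted p = 0.0536, 0.0592 and 0.0629). Ppp2r3d, a B'' subunit, had 17.7, 18.5 and 17.4 FPKM in aged against 21.4, 21.5 and 21.02 FPKM in young muscle (log2 change -0.24 ± 0.06, adjusted p = 0.00879). Ppp2r2d, the most abundant PP2A member, averaged 34.4 ± 0.8504 FPKM in aged and 32.8 ± 1.07 FPKM in young muscle and was not called (adjusted p = 0.351). The scaffold genes Ppp2r1a and Ppp2r1b were not analysed here. Of 8 PP2A modulators tested, 2 were higher, Fam122a, an inhibitor of B55 complexes (log2 change 0.36 ± 0.07), and Strn3, a striatin subunit (0.24 ± 0.07), and 1 was lower, Strn4, also a striatin (-0.28 ± 0.10).

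The regulatory subunits of PP4 and PP6 had 1 higher call each and no lower call, among 2 and 3 tested. Ppp4r2 averaged 23.7 ± 0.799 FPKM in aged and 19.99 ± 1.67 FPKM in young muscle (log2 change 0.24 ± 0.07, adjusted p = 0.0265), and it was no longer called without aged replicate 3 or young replicate 2 (adjusted p = 0.0711 and 0.0834). Ppp6r3 had 20.7, 20.5 and 22.1 FPKM in aged muscle, against 17.5, 17.1 and 17.2 FPKM in young muscle, with no overlap (log2 change 0.27 ± 0.06, adjusted p = 0.00656). Ppp6r1, which had the highest mean FPKM of these 5 genes, averaged 41.2 ± 1.72 FPKM in aged and 43.2 ± 0.495 FPKM in young muscle and was not called (adjusted p = 0.333). Over the longest transcripts it stood at 16.9 FPKM in aged and 17.7 FPKM in young muscle, below Ppp6r2 at 19.4 and 18.5 FPKM. The catalytic genes Ppp4c, Ppp5c and Ppp6c were not analysed here.

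Of the 3 calcineurin genes tested, Ppp3cb was higher in aged muscle and the other two were not called. Ppp3cb, the beta form of calcineurin A, had 181, 170.5 and 195 FPKM in aged muscle, against 131, 128 and 135 FPKM in young muscle. Every aged library lay above every young one, and the gene was 1.39-fold higher (log2 change 0.47 ± 0.06, adjusted p = 0.00108). Ppp3ca, the alpha form, had 173, 151 and 160.5 FPKM in aged muscle and 169, 182 and 169.6 FPKM in young muscle, with overlapping groups and no call (log2 change -0.10 ± 0.07, adjusted p = 0.221). The difference between the changes of the 2 genes was not tested.

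Ppp3cb made up 51.0%, 53.0% and 54.9% of the summed FPKM of the pair in aged muscle, against 43.6%, 41.3% and 44.4% in young muscle. The 2 groups of shares did not overlap. The summed FPKM of both genes was 344 ± 19.0 in aged muscle and 305 ± 5.24 in young muscle (SD, n = 3 each). Divided by the longest annotated transcript instead of the length behind the deposited values, Ppp3cb stood at 86.5 FPKM in aged and 62.4 FPKM in young muscle, and Ppp3ca at 60.3 FPKM in aged and 64.8 FPKM in young muscle. On either length Ppp3cb had the higher mean of the pair in aged muscle and the lower mean in young muscle. Over the longest transcripts the young values lay close together, and young replicate 3 had 64.3 FPKM for Ppp3cb and 63.2 FPKM for Ppp3ca. Ppp3r1, the calcium-binding B subunit, averaged 58.7 ± 4.46 FPKM in aged and 59.5 ± 0.849 FPKM in young muscle and was not called (adjusted p = 0.781), and its exons share 14.3% of their bases with Wdr92 on the same strand.

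Ppp3cb lies at chr14:20499364-20546573 on the minus strand of GRCm38, 2462 bases from Mss51, a muscle gene of mitochondrial metabolism on the same strand. Mss51 had 52.3, 44.6 and 52.9 FPKM in aged muscle, against 6.45, 7.33 and 8.64 FPKM in young muscle, 6.68-fold higher (adjusted p = 1.31e-05).

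**Figure D3:**
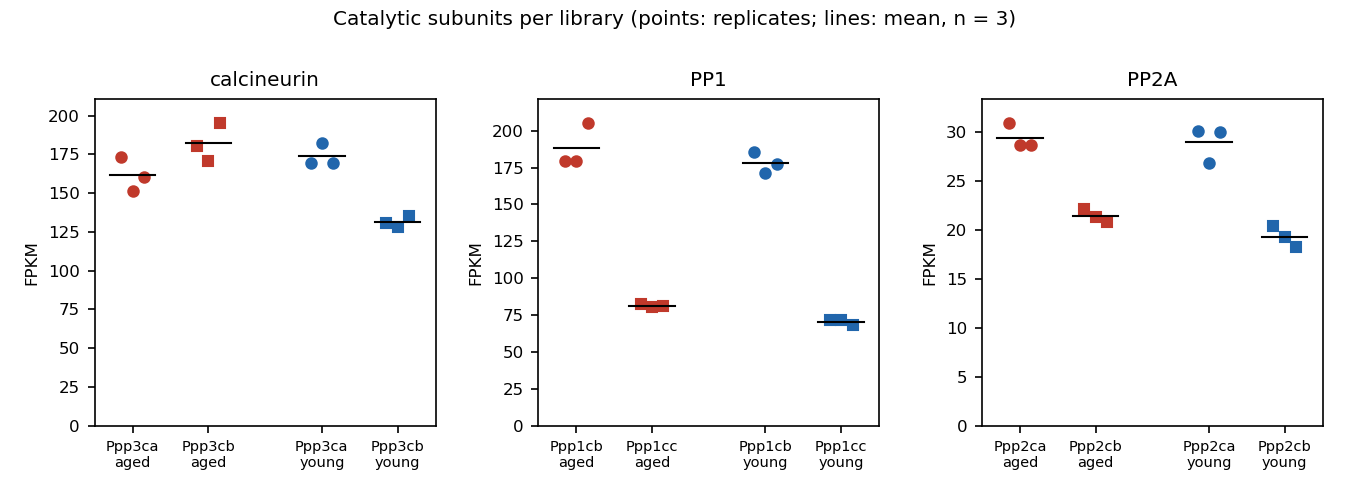
FPKM of the catalytic subunits of calcineurin, PP1 and PP2A in each library (points, aged in red and young in blue, with circles for the first gene of a panel and squares for the second), with lines at the mean of 3 libraries. The squares of Ppp3cb stand above the circles of Ppp3ca on average in aged muscle (182 and 162 FPKM) and below them in young muscle (131 and 174 FPKM), while the order of the PP1 and PP2A pairs is the same at both ages.

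Of the 17 calcineurin partners and targets tested, 8 were higher and 3 lower in aged muscle, against 27.3% higher and 24.5% lower among all genes. Calm2, whose protein activates calcineurin, averaged 111 ± 11.9 FPKM in aged and 60.8 ± 6.22 FPKM in young muscle (SD, n = 3 each), with a log2 change of 0.86 ± 0.10 (adjusted p = 0.000587). Mef2a, a muscle transcription factor activated through calcineurin, had a log2 change of 0.62 ± 0.07 (adjusted p = 0.000628). Myoz2, a calcineurin-binding protein of slow fibres, was 4.15-fold lower (19.9 ± 0.9700 FPKM in aged and 82.3 ± 11.3 FPKM in young muscle, adjusted p = 1.76e-05). Rcan1, whose transcription calcineurin drives, had 26.3, 27.2 and 26.6 FPKM in aged and 22.6, 23.1 and 36.3 FPKM in young muscle. Its means were 26.7 ± 0.424 and 27.3 ± 7.78 FPKM, and it was not called (adjusted p = 0.995). Young replicate 3 was its highest library, and every aged value lay above young replicates 1 and 2. The NFAT genes moved both ways, with Nfatc2 and Nfatc3 higher (log2 change 0.43 ± 0.11 and 0.36 ± 0.06) and Nfatc4 lower (-0.55 ± 0.11), and Rcan1 and the NFAT genes are named here after their values were seen.

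MAP kinase phosphatases had 2 higher and 2 lower calls among 7 tested. Dusp10 (MKP-5), which acts on p38 and JNK, had 25.7, 21.05 and 27.1 FPKM in aged muscle, against 12.1, 13.1 and 19.5 FPKM in young muscle. The lowest aged value lay just above the highest young one, and the gene was 1.66-fold higher (log2 change 0.71 ± 0.17, adjusted p = 0.0105). Dusp8, also directed at JNK and p38, had 15.7, 19.6 and 19.6 FPKM in aged against 12.2, 13.4 and 15.2 FPKM in young muscle (log2 change 0.40 ± 0.11, adjusted p = 0.0169). It was no longer called without aged replicate 2 or 3 (adjusted p = 0.0511 and 0.0549) and without young replicate 1 or 2 (adjusted p = 0.0583 and 0.0529).

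The 2 lower calls were the cytoplasmic ERK phosphatases Dusp7 and Dusp6. Dusp7 (MKP-X) had 37.9, 29.1 and 28.9 FPKM in aged muscle, against 53.2, 55.01 and 43.3 FPKM in young muscle, 1.58-fold lower with no overlap (log2 change -0.65 ± 0.13, adjusted p = 0.00482). Dusp6 (MKP-3), a gene that ERK signalling itself induces, had 3.82, 4.53 and 3.36 FPKM in aged muscle, against 5.54, 5.94 and 5.94 FPKM in young muscle (log2 change -0.48 ± 0.10, adjusted p = 0.00521). The young values of Dusp6 lay close together and above all aged ones. The immediate early gene Dusp1 (MKP-1) had 28.6, 46.7 and 34.7 FPKM in aged and 37.1, 36.3 and 40.1 FPKM in young muscle, with aged replicates on both sides of the young range (adjusted p = 0.722). Dusp4 and Dusp16 were not called, with log2 changes of 0.03 and -0.12, and Dusp2 and Dusp5 lay below the minimum.

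Atypical dual-specificity phosphatases, which lack the MAP kinase binding domain, had 2 higher and 4 lower calls among 9 tested. Dusp3 (VHR) had 44.6, 44.8 and 47.3 FPKM in aged muscle, against 30.5, 30.9 and 33.6 FPKM in young muscle, 1.44-fold higher with tight groups (log2 change 0.51 ± 0.06, adjusted p = 0.000619). Dusp13, a form found in muscle and testis and the most abundant of the family, had 126, 147 and 153 FPKM in aged against 107, 108 and 104 FPKM in young muscle (log2 change 0.41 ± 0.08, adjusted p = 0.00441). An antisense gene that shares 10.2% of the exon bases of Dusp13 averaged 17.2 FPKM.

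Dusp18, found in mitochondria, was the largest called fall of the class by log2 change and by fold, with 2.39, 1.51 and 1.15 FPKM in aged muscle, against 3.57, 3.17 and 4.03 FPKM in young muscle (2.13-fold lower, log2 change -0.80 ± 0.16, adjusted p = 0.00577). Dusp26 had 43.3, 48.2 and 40.4 FPKM in aged muscle, against 70.8, 68.4 and 62.05 FPKM in young muscle (1.53-fold lower, log2 change -0.60 ± 0.08, adjusted p = 0.00105). In both genes all aged values lay below all young values. Dusp23 (VHZ) averaged 23.5 ± 1.46 FPKM in aged and 28.97 ± 1.38 FPKM in young muscle (log2 change -0.29 ± 0.07, adjusted p = 0.00977). Dusp22, known as JKAP, averaged 36.7 ± 1.995 FPKM in aged and 42.5 ± 1.17 FPKM in young muscle (log2 change -0.21 ± 0.06, adjusted p = 0.0226), and it was no longer called with the rescaled libraries (adjusted p = 0.0650), without aged replicate 1 (adjusted p = 0.0657) and without young replicate 1, 2 or 3 (adjusted p = 0.0850, 0.0507 and 0.0591). Dusp14, Dusp19 and the muscle pseudophosphatase Dusp27 were not called, with log2 changes of -0.25, -0.02 and -0.07.

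Of 6 MAP kinase genes tested, 3 were higher and 1 lower. Mapk14, which encodes p38 alpha, averaged 100.5 ± 4.302 FPKM in aged and 67.5 ± 1.65 FPKM in young muscle (log2 change 0.57 ± 0.06, adjusted p = 0.000294), and Mapk6 (ERK3) and Mapk9 (JNK2) were higher by 0.45 ± 0.06 and 0.20 ± 0.06. Mapk7 (ERK5) had a log2 change of -0.30 ± 0.10. Of 12 genes known to respond to MAP kinase signalling, 6 were lower and none was higher by limma. Among all genes tested 24.5% were lower and 27.3% higher. With the replicate number as a block Junb was called higher (log2 change 0.32, adjusted p = 0.0288). Etv4, an ETS factor, averaged 1.497 ± 0.415 FPKM in aged and 6.57 ± 0.334 FPKM in young muscle (log2 change -1.61 ± 0.12, adjusted p = 9.06e-05), Etv5 had a log2 change of -0.53 ± 0.07, Jun one of -0.56 ± 0.10 and Fosl2 one of -0.58 ± 0.15. Fos, with 3.51, 10.5 and 2.57 FPKM in aged and 2.37, 2.799 and 5.47 FPKM in young muscle, was not called (adjusted p = 0.472) and is named here after its values were seen.

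Non-receptor tyrosine phosphatases had 2 higher and 3 lower calls among 9 tested. Ptpn4, whose FERM domain is of a kind that binds the membrane and the actin cortex, had 19.5, 28.6 and 29.3 FPKM in aged muscle, against 12.1, 11.3 and 15.1 FPKM in young muscle. The groups did not overlap, and aged replicate 1 was the lowest of the aged libraries, as it was for Ppp1r27. The gene was 2.01-fold higher (log2 change 0.94 ± 0.16, adjusted p = 0.003004). The length behind its FPKM was 902 bases, 8.30% of its longest annotated transcript, so its level cannot be set beside those of other genes, while the ratio between ages does not depend on that length. Ptpn21 had 13.7, 12.9 and 13.3 FPKM in aged muscle, against 7.095, 7.69 and 7.497 FPKM in young muscle, 1.79-fold higher (log2 change 0.77 ± 0.06, adjusted p = 0.000126).

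Ptpn3, the most abundant gene of this family by FPKM, had 124, 118 and 109.7 FPKM in aged muscle, against 169, 166 and 183 FPKM in young muscle, 1.47-fold lower with no overlap (log2 change -0.56 ± 0.07, adjusted p = 0.000624). Over its longest transcript its level was 28.2 FPKM in aged and 41.5 FPKM in young muscle. Ptpn13, a large FERM and PDZ protein, had 1.35, 0.906 and 1.07 FPKM in aged against 1.99, 2.103 and 1.91 FPKM in young muscle, 1.81-fold lower (log2 change -0.51 ± 0.10, adjusted p = 0.00388). The FERM gene Ptpn14 averaged 16.2 ± 0.996 FPKM in aged and 14.3 ± 0.749 FPKM in young muscle, with all aged values above and no call (adjusted p = 0.0769), and it passed with the rescaled libraries (adjusted p = 0.0286). Ptpn11, which encodes SHP2, a positive relay of growth factor signals, averaged 38.4 ± 0.372 FPKM in aged and 44.3 ± 1.75 FPKM in young muscle (log2 change -0.20 ± 0.05, adjusted p = 0.01700). It was no longer called with the rescaled libraries (adjusted p = 0.0671) and without young replicate 1 or 2 (adjusted p = 0.0578 and 0.0674). Ptpn12 (PTP-PEST) and Ptpn23 (HD-PTP) were not called, with log2 changes of -0.14 and -0.15, and Ptpn1 and Ptpn2 were not analysed here.

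Of 10 insulin and growth factor receptor genes and adaptors tested, 1 was higher and 5 lower. Kdr, the VEGF receptor 2, averaged 15.9 ± 3.76 FPKM in aged and 8.499 ± 0.816 FPKM in young muscle (log2 change 0.81 ± 0.15, adjusted p = 0.00417). Irs2, Egfr and Pdgfrb had log2 changes of -0.65 ± 0.19, -0.61 ± 0.08 and -0.55 ± 0.10.

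Receptor tyrosine phosphatases had low levels, with means between 0.0345 and 10.9 FPKM, and gave 1 higher and 4 lower calls among 10 tested. Ptprm, a homophilic adhesion receptor, had 9.002, 8.496 and 7.75 FPKM in aged muscle, against 5.59, 6.58 and 5.76 FPKM in young muscle, 1.41-fold higher with no overlap (log2 change 0.43 ± 0.08, adjusted p = 0.00436). Ptprb (VE-PTP), the endothelial partner of the receptor Tie2, had 8.77, 9.91 and 9.25 FPKM in aged muscle, against 11.6, 13.5 and 12.6 FPKM in young muscle, 1.35-fold lower (log2 change -0.39 ± 0.08, adjusted p = 0.00456). Of the 9 endothelial markers listed and tested, 6 were lower and 1, Kdr, was higher. Their summed FPKM was 284, 303 and 256 in aged muscle, against 330, 381 and 326 in young muscle, and their part in the fall of Ptprb was not tested.

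The LAR family members Ptprf and Ptprd were lower. Ptprf had 1.12, 1.26 and 0.951 FPKM in aged muscle, against 1.66, 2.45 and 1.698 FPKM in young muscle (1.74-fold lower, log2 change -0.47 ± 0.12, adjusted p = 0.0138). Ptprd had 2.12, 2.15 and 2.64 FPKM in aged against 3.67, 3.35 and 2.92 FPKM in young muscle (log2 change -0.38 ± 0.10, adjusted p = 0.0132). The third LAR gene, Ptprs, averaged 10.5 ± 0.933 FPKM in aged and 10.6 ± 0.264 FPKM in young muscle and was not called (adjusted p = 0.785). Ptprj (DEP-1) had 1.10, 0.709 and 0.784 FPKM in aged against 1.65, 1.24 and 1.28 FPKM in young muscle (log2 change -0.36 ± 0.11, adjusted p = 0.0283), and it was no longer called without aged replicate 2 or 3 (adjusted p = 0.0792 and 0.0805) and without young replicate 1 or 3 (adjusted p = 0.0935 and 0.0505). Ptprg, Ptprk and Ptpru were not called, with log2 changes of 0.01, -0.12 and -0.19.

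Beside these falls, fibroblast, tendon and nerve markers were also lower. Of the markers tested, 7 of 8 fibroblast genes, 4 of 5 tendon genes and 2 of 5 Schwann cell and nerve genes were lower and none was higher by limma. The summed FPKM of the fibroblast markers was 282, 215 and 244 in aged muscle, against 1266, 1185 and 912 in young muscle. The collagen genes Col1a1 and Col3a1 carried most of this fall, and the sum of the other 6 markers was 207, 142 and 183 in aged muscle, against 295, 236 and 221 in young muscle. The groups of this second sum did not overlap, and its mean was 1.41-fold lower in aged muscle. The sum of the tendon markers was 106, 90.4 and 91.9 in aged muscle, against 395, 321 and 205 in young muscle. For Schwann cell and nerve markers it was 66.2, 63.5 and 65.9 in aged muscle, against 87.1, 99.6 and 90.4 in young muscle. With the replicate number as a block the eighth fibroblast gene, Dcn, was also lower (adjusted p = 0.0321). Smooth muscle and pericyte genes had 3 lower and no higher calls among 8 tested, and with the block 1 lower, since Rgs5 and Cspg4 were no longer called (adjusted p = 0.0760 and 0.0580). Adipocyte markers had 3 higher calls, Plin1, Adipoq and Fabp4 (log2 change 0.68 ± 0.16, 0.33 ± 0.10 and 0.27 ± 0.07), and 1 lower, Cfd (-0.64 ± 0.15), among 4 tested. Among 5 muscle fibre genes, the fast myosin Myh4 was higher (log2 change 0.48 ± 0.07), and the fast myosin Myh1 and the actin Acta1 were lower (-0.68 ± 0.10 and -0.40 ± 0.09). Denervation-responsive genes had 1 higher and 3 lower calls among 7 tested, and muscle stem cell genes 1 higher and 1 lower among 3. The part of these cell types in the changes of the phosphatase genes was not tested.

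Ptprc and Ptpn6, the phosphatases CD45 and SHP-1 of blood cells, were set apart by a single library. Ptprc had 1.14, 0.7204 and 1.29 FPKM in aged muscle and 3.63, 1.19 and 1.33 FPKM in young muscle, and Ptpn6 had 2.202, 0.933 and 1.24 FPKM in aged muscle and 3.92, 1.495 and 1.43 FPKM in young muscle. Young replicate 1 was the highest library for both genes, and neither was called (adjusted p = 0.159 and 0.318). Without young replicate 1 the log2 changes were -0.15 for Ptprc and -0.04 for Ptpn6. With the replicate number as a block Ptpn6 was called lower (adjusted p = 0.0313). The summed FPKM of 10 leukocyte and macrophage markers was 25.8, 12.2 and 22.7 in aged muscle, against 60.5, 22.1 and 27.9 in young muscle, so these markers were also highest in young replicate 1. Of 6 tested, Csf1r alone was called (2.42 ± 0.966 FPKM in aged and 4.41 ± 1.09 FPKM in young muscle, adjusted p = 0.0282). With the replicate number as a block 5 of the 6 were lower, as Adgre1, Laptm5, Coro1a and Tyrobp were also called (adjusted p = 0.00957, 0.00411, 0.0462 and 0.00802). The B-cell gene Ms4a1 was listed at 0 in the 3 young libraries and at 0.0206, 0.0153 and 0.00771 FPKM in the aged ones. It did not pass in the limma fit without a minimum (adjusted p = 0.414). Of 3 immune receptor signalling partners tested, Fyn and Syk were lower (log2 change -0.41 ± 0.10 and -0.70 ± 0.15).

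**Figure D4:**
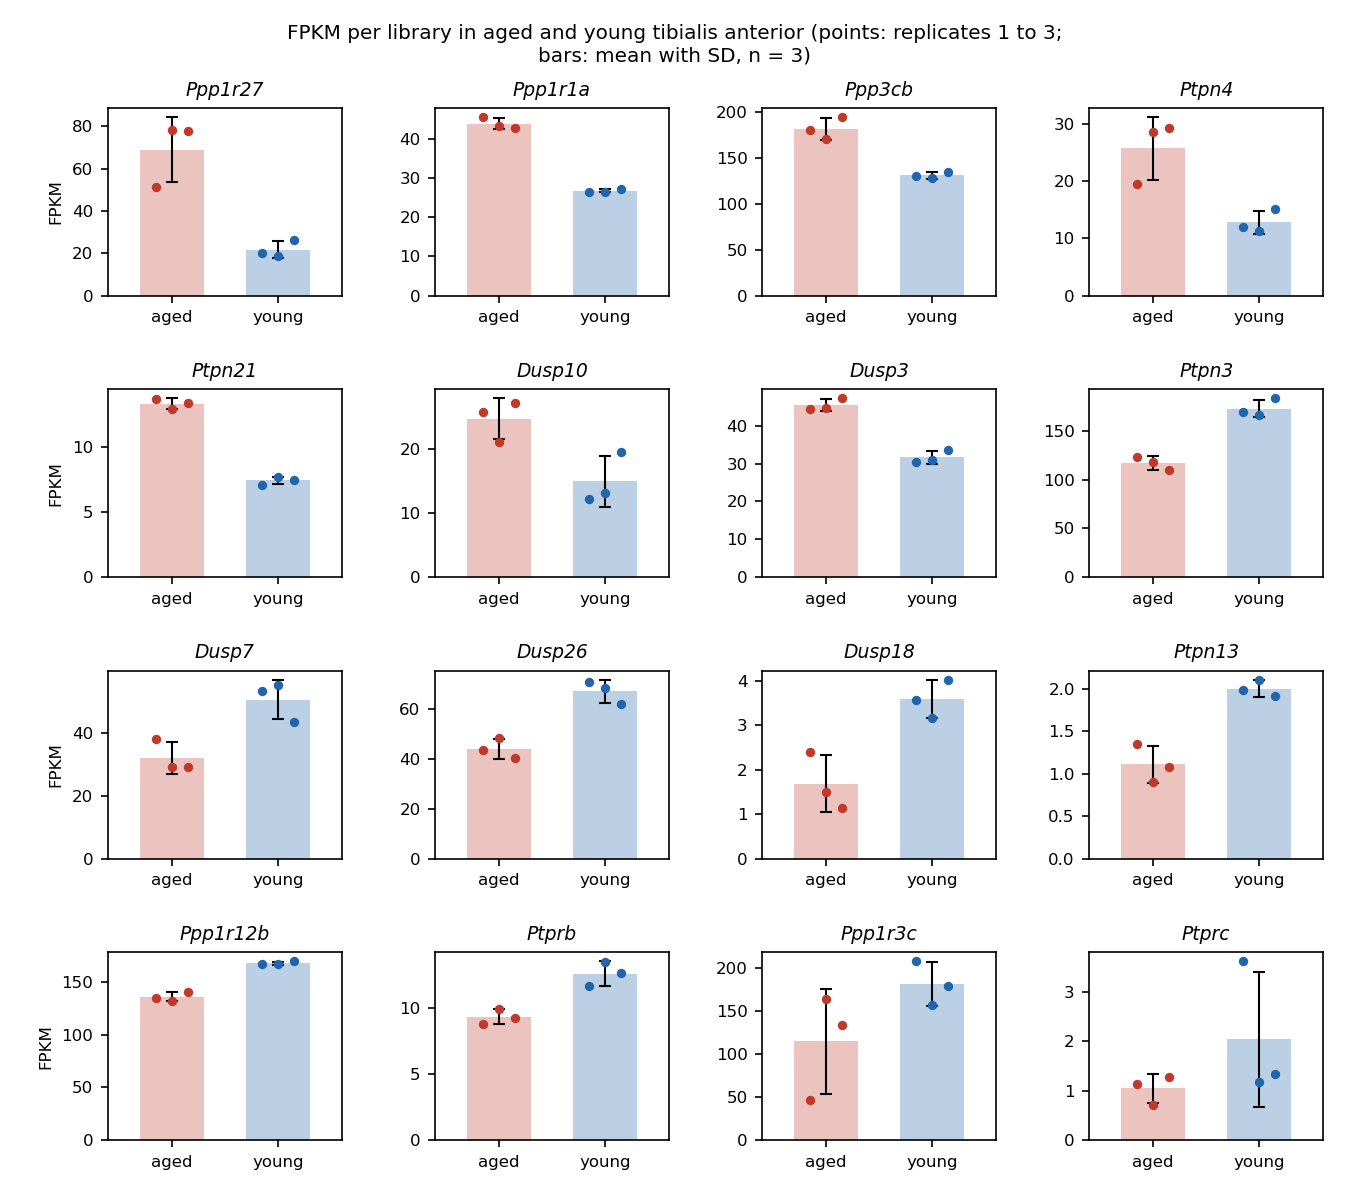
FPKM of 16 phosphatase genes in each library (points for replicates 1 to 3), with bars at the mean and lines for the SD of 3 libraries, aged on the left of each panel and young on the right. The groups stand apart in 14 panels, such as Ppp1r27 (51.3 to 78.2 against 18.7 to 26.4 FPKM), while Ppp1r3c, with 1 low aged library, and Ptprc, with 1 high young library, overlap.

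The 16 genes below the minimum had means between 0.00125 and 0.890 FPKM, and 3 of them passed when the fit was made without a minimum. Ptprv, a member of the receptor family known as OST-PTP and annotated as a processed transcript, had 0.0424, 0.118 and 0.0714 FPKM in aged muscle, against 0.389, 0.402 and 0.356 FPKM in young muscle. These values rest on 20 fragments in the aged and 97 in the young libraries, and the adjusted p was 0.00124. Ppp1r9a, the actin-binding subunit neurabin, was lower (0.806, 0.5901 and 0.744 FPKM in aged against 1.17, 0.982 and 1.05 FPKM in young muscle, adjusted p = 0.0204), as its relative Ppp1r9b was. Ppp2r2c, a B55 subunit known from brain, was higher (0.237, 0.205 and 0.274 FPKM in aged against 0.139, 0.0833 and 0.147 FPKM in young muscle, adjusted p = 0.0222), on 112 and 58 fragments. Dusp2 had 0.659, 1.42 and 0.768 FPKM in aged and 0.3400, 0.573 and 0.379 FPKM in young muscle and did not pass (adjusted p = 0.0586). Ppp1r3g, Ppp1r1c, Ptpn5 and Ppp1r42 were barely detected, with at most 11 fragments in a group of 3 libraries. The other 8 were Dusp5, Ppp1r1b, Ppp1r3d, Ptpn7, Ptpn18, Ptprq, Ptprr and Ptprt.

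Of the 37 calls, 29 were kept when any single library was left out. When the adjustment ran over all 55450 annotated genes, with those outside the tables counted as not significant, 20 calls were kept, 10 higher and 10 lower. These were Ppp1r27, Ppp1r1a, Ppp2r5e, Ppp3cb, Ppp6r3, Dusp3, Dusp13, Ptpn4, Ptpn21 and Ptprm on the higher side, and Ppp1r9b, Ppp1r10, Ppp1r12b, Dusp6, Dusp7, Dusp18, Dusp26, Ptpn3, Ptpn13 and Ptprb on the lower side. All 20 were also kept when any single library was left out. With the adjustment over all annotated genes, 983 genes were called higher and 904 lower among all 7690 tested.

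Phosphatases outside the name rule gave 11 higher and 5 lower calls among 35 tested. Cdc14a, a phosphatase of the cell cycle and of cilia, averaged 5.52 ± 0.442 FPKM in aged and 16.8 ± 0.439 FPKM in young muscle (log2 change -1.45 ± 0.07, adjusted p = 1.76e-05). Eya1, a phosphatase and transcription factor of the fast fibre programme, averaged 12.7 ± 1.27 FPKM in aged and 6.39 ± 0.606 FPKM in young muscle (log2 change 0.89 ± 0.09, adjusted p = 0.000343). Styx, a pseudophosphatase, had a log2 change of 0.73 ± 0.16, and Ctdspl, a small phosphatase of RNA polymerase II, one of -0.63 ± 0.11.

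The promoter windows of the class held more CpG at the median than RefSeq windows as a whole. Of the 88 genes, 71 had an entry in the RefSeq table, with 92 windows of 250 bases before a transcription start. Their median was 64% G and C and 18 CpG, next to 52.4% and 6 over all 32851 windows. The comparison windows here and below are those of the whole RefSeq table, not of the genes in the deposited tables alone. Whether the other genes of the deposited tables share these traits was not tested. TGACGTCA, the cAMP response element (CRE), reads the same on both strands and stood in 9 of the 92 windows (9.78%), next to 1.55% of all windows. It contains a CpG, and the part of base composition in this share was not tested. The 9 windows belong to 8 genes and are shown because the element is the motif, of 6 searched, whose share stood furthest above that of all windows. The shares of GGAAA and CANNTG stood further from those of all windows, on the low side. Each line gives the element in capitals with up to 11 bases on each side, read 5' to 3' on the strand of the gene.
Dusp1: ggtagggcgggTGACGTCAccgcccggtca
Dusp8, upstream element: gcccgctccgcTGACGTCAcctgcccccga
Dusp8, downstream element: ttggctgcaggTGACGTCAggggctttttc
Ppp1r12c: ggtcggcgccgTGACGTCAatataccgagc
Ppp1r15a: cgcctctccggTGACGTCAgcac
Ppp2ca: tgacgctggcgTGACGTCAccacgccgggc
Ppp2r2d: gcggagggggaTGACGTCAtccggcggggc
Ptpn11: gcggcgcgcgaTGACGTCAcgcaggcgccg
Ptpru: gcccgggggccTGACGTCAgcgccccgctc
The line of Ppp1r15a ends at its transcription start. The elements of Dusp8, Ppp2ca and Ppp2r2d lie inside the deposited spans of their genes. The positions are chr17:26508597-26508626 (-) for Dusp1, chr7:142095373-142095402 (-) for Dusp8 (upstream element), chr7:142095329-142095358 (-) for Dusp8 (downstream element), chr7:4501731-4501760 (-) for Ppp1r12c, chr7:45526269-45526291 (-) for Ppp1r15a, chr11:52098787-52098816 (+) for Ppp2ca, chr7:138846327-138846356 (+) for Ppp2r2d, chr5:121191446-121191475 (-) for Ptpn11 and chr4:131838301-131838330 (-) for Ptpru, all on GRCm38.p6. Among these 8 genes 1 was called higher and 2 lower, next to 27.3% higher and 24.5% lower among all genes tested. Their median log2 change was -0.02, next to -0.02 in all members tested. With 8 genes, these counts cannot show whether the element goes with a direction of change. The other motifs stood in 57.6% (CANNTG), 6.52% (CACGTG), 40.2% (GGAAA), 5.43% (the MEF2 core) and 6.52% (TATAAA) of the 92 windows, next to 66.2%, 6.02%, 55.6%, 3.20% and 12.4% of all windows, with GGAAA and TATAAA counted on both strands.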

How the data were processed

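RNA of 3 aged and 3 young samples of tibialis anterior was sequenced after TRIzol extraction and Illumina library preparation, per the labels' protocols. The authors deposited FPKM values, with a table per library. The submitters' processing notes name bcl2fastq 2.19, TopHat, DESeq2 and the build mm9, without saying which step each served. The deposited positions follow GRCm38 instead, where 77 of the 88 members share their start base with GENCODE M21, and coordinates are printed as the tables give them. The tables list 11239 genes, chosen by a rule that no source used here states, and 1 line of each was not used. For 14 genes a symbol that had turned into a date was restored. Of 137 annotated protein-coding genes that fit the name rule, 50 were not analysed here.

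The library totals were recovered from low FPKM values of genes with a single annotated transcript. With these totals, the FPKM values of 100% of the genes gave whole fragments, each within 1e-05 of a whole number. A floor of 3 fragments on a transcript of 1 kb corresponds to between 0.0294 and 0.0417 FPKM, and it covers counting error only. The length behind the values was within 1 base of the mean annotated transcript length for 79.9% of genes, and under 50% of the longest transcript for 31 members. Ratios between ages do not depend on it, while levels of different genes do. Replicates of a group differed beyond sampling noise, by a chi-square of 29.8 to 76.3 per degree of freedom.

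All genes averaging 1 FPKM or more were fitted with limma 3.58.1 in R 4.3.3 on log2(FPKM + 1), empirical Bayes with a trend, two-sided, without further scaling, and only the members are printed. The scale understates changes of low genes. The code was tested on simulated data. Median log2 changes of all genes stayed within 0.1 under each scaling. Libraries with the same replicate number deviated together across genes (correlations 0.177, 0.182 and 0.136, against -0.192 to 0.0358 for other pairs). The labels do not say that the numbers pair the samples, and with 3 libraries per group these correlations cannot settle it. The main calls are from the fit without a block. The fit with the replicate number as a block is given as an alternative where it changed a call of a member or of a gene in a list.

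The members, the gene lists and the naming rule were chosen with earlier results of these data known. Named are all catalytic subunits, up to 6 called members per family or role, and called members changed at least 1.5-fold without overlap. Also named are the member with the highest mean FPKM per family and up to 4 called genes per list. Other names were added after their values were seen. Promoter windows are from RefSeq on GRCm38.p6.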

Additional observations from a re-analysis of the deposited data

How the results depend on the processing

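The tables hold a subset of the annotated genes and 3 libraries per age, and members of a few fragments, such as Ptprv, carry large counting error. The 37 calls, 18 higher and 19 lower, were the same in number with a pseudocount of 0.1, median-of-ratios scaling, robust estimation and limma-voom on the recovered fragments. With a minimum mean of 5 FPKM, 55 members were tested and 30 called, 18 higher and 12 lower. The share of calls that were higher was then 60% in the members, next to 55.4% over all 5204 genes tested. Without a minimum 40 were called, and 40 with the rescaled libraries, where 34 of the 37 were kept. Adjusted over all annotated genes, 20 were called, 10 higher and 10 lower. Leaving out a single library gave 31 to 37 calls, 15 to 18 higher and 15 to 19 lower. Ppp2ca, which was not called, ranged from -0.030 (without young replicate 2) to 0.050 (without young replicate 1) in log2 change, and was -0.012 without aged replicate 1. The cause was not tested.

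With the replicate number as a block, 39 members were called, 19 higher and 20 lower. This fit kept all 37 calls, added Ppp1r14b and Ptpn6, and changed no other member's call. The planned count test on the recovered fragments was not run.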
